A study of Homo sapiens with 2 samples.

Results

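Eph receptors and ephrins were followed in the human gastric cancer cell line SNU216, an established line, after knockdown of the transcription factor TEAD4. The genes were 10 of the 20046 named genes on the array, chosen by symbol: the receptors EPHA1, EPHA2, EPHA4, EPHB2, EPHB3, EPHB4 and EPHB6 and the ephrins EFNA1, EFNA4 and EFNB2. Total RNA was measured on Illumina expression arrays. There was 1 array of TEAD4 knockdown cells (TEAD4 KD) and 1 array of cells with a hairpin meant to silence no gene (control). The labels give no hairpin number, clone number or time after delivery for either line. The choice of genes used the difference between these arrays, so their values describe that pair of arrays and carry no test, and with 1 array a group no difference has a replicate check.

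Eph receptors form the largest family of receptor tyrosine kinases, and their ligands, the ephrins, are themselves held on the cell surface, so signalling needs contact between cells. A-type ephrins are tied to the membrane by a lipid anchor and mostly bind EPHA receptors, whereas B-type ephrins cross the membrane and mostly bind EPHB receptors. The receptor-bearing cell receives a forward signal and the ephrin-bearing cell a reverse signal, and in epithelia the balance between them shapes adhesion, repulsion and the borders between cell populations. TEAD factors are the DNA-binding partners through which YAP and TAZ act when Hippo signalling is low, and their core motif reads GGAATG, or CATTCC on the opposite strand.

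The promoter of EPHA2 is shown because EPHA2 had the largest difference of the detected genes of the family, and that of EPHB4 because it came next. Both are windows of 300 bases, from 250 before to 50 after the gene's start, on the minus strand in RefSeq's GRCh38.p14, at chr1:16156020-16156319 for EPHA2 and chr7:100827474-100827773 for EPHB4. Capitals mark the TEAD core motif.
EPHA2: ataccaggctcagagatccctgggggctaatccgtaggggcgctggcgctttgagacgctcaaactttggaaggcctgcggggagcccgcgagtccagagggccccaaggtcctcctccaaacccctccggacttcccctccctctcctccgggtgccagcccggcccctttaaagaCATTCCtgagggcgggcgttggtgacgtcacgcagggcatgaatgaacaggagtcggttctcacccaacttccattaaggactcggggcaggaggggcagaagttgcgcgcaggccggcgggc
EPHB4: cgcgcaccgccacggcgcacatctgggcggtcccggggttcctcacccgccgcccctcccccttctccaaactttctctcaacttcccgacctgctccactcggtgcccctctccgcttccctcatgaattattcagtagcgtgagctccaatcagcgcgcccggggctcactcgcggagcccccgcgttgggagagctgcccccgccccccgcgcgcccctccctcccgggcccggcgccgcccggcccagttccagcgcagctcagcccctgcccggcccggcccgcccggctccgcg

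The EPHA2 window held CATTCC once, from 73 to 68 bases before the start. All 10 genes had a window in the table, 12 windows in all, and EPHA2 was the 1 gene among them with the motif on either strand. Over all 35116 promoter windows of this length, 14.0% held it. The AP-1 core TGANTCA, which reads alike on both strands, was in 0 of the 12 windows, against 7.7% of all windows. TGACGTCA, the palindrome bound by CREB and ATF factors, lay from 51 to 44 bases before the EPHA2 start, and 1.85% of all windows held it; it was searched after the sequence had been read. A match is a string of letters and does not show binding, and whether these letters have a part in the difference was not tested.

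TEAD4, the targeted gene, had a normalized log2 signal of 7.55 in TEAD4 KD and 10.11 in control by its brightest probe, 5.89-fold lower in the knockdown. A second TEAD4 probe was detected in control alone and was at least 1.17-fold lower in TEAD4 KD, and the third was detected on neither array. Of the 47323 probes, 39.4% were detected in TEAD4 KD and 40.0% in control at a detection p-value under 0.01, covering 11720 genes on at least 1 array. Among these genes the median log2 difference was -0.04. The epithelial markers EPCAM, KRT8 and KRT19 were detected on both arrays with log2 differences of -0.20, -0.14 and -0.04. CDH1, also detected on both, had a signal of 13235 in TEAD4 KD and 8869 in control, 1.58-fold higher in the knockdown, and KRT18 was detected on neither. Of the markers of other cell types, 0 of 5 endothelial, 1 of 4 leukocyte with a probe and 4 of 6 fibroblast markers were detected. The fibroblast marker LUM had a signal of 7.70 in TEAD4 KD and 111 in control and DCN 22.6 in TEAD4 KD and 48.1 in control, both detected in control alone. COL1A1 had 45.5 in TEAD4 KD and 61.3 in control and COL1A2 58.7 in TEAD4 KD and 57.8 in control, both detected on both arrays. Of 4 neuronal markers, 2 were detected, both at least 1.5-fold higher in the knockdown. TUBB3 had a signal of 7420 in TEAD4 KD and 5115 in control, 1.55-fold higher, and SYP, detected in TEAD4 KD alone, had 83.8 in TEAD4 KD and 7.48 in control. The part of these markers in the values given here was not tested.

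Of the 10 genes, 9 had a probe with their symbol in the platform annotation, 11 probes in all, and 8 genes were detected on both arrays. No member was detected on 1 array alone, so none passed the detection threshold through its brighter array. No probe is listed for EPHB2, a receptor that positions cells along the intestinal crypt, and it was not analysed here. The probe of EPHB3, a relative with a similar role in the crypt, had a signal of 1.43 in TEAD4 KD and 7.62 in control. Both EPHB3 values lie below the lowest signal of any detected probe, 35.3 in TEAD4 KD and 35.2 in control, so no direction is given for it.

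All 5 detected receptors had a positive log2 difference, TEAD4 KD minus control, with a median of 0.46 and a range from 0.16 to 2.10. All 3 ephrins had a negative one by their brightest probe, from -0.21 to -0.01, with a median of -0.08. At least 2-fold higher was 1 of the 8 detected genes, EPHA2, and 0 were at least 2-fold lower, against 1.81% of all detected genes higher and 2.34% lower by that much. At least 1.5-fold higher were 2 genes, EPHA2 and EPHB4, and 0 were lower, against 7.24% and 9.2% of all detected genes. These counts follow from how the genes were chosen and nothing is read from them. The split by class depends on the probe, since both ephrins with 2 probes had 1 probe in each direction, as given below. Nor did it extend to the detected family genes outside the 10. There the receptor EPHA8 had a log2 difference of -0.84 and the ephrin EFNB1 one of 0.51. The receptors EPHA10 and EPHA6 had a positive difference by their brightest probe.

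**Figure D1:**
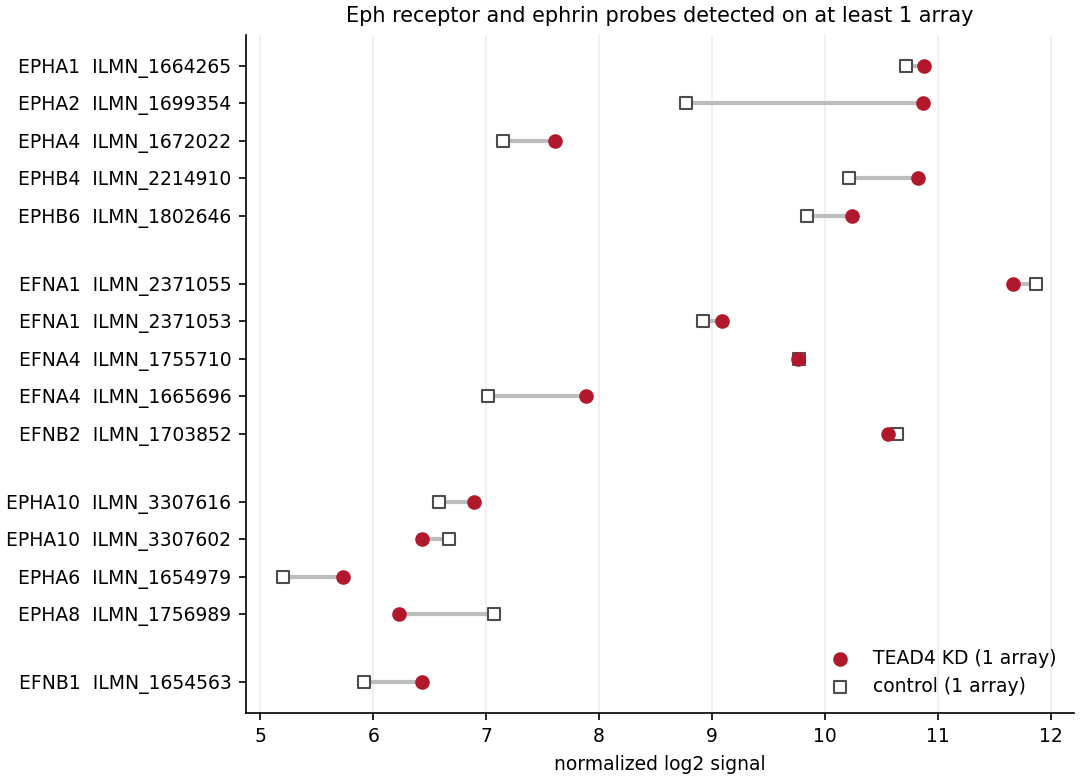
Normalized log2 signal (horizontal axis) of each Eph receptor and ephrin probe detected on at least 1 array, with TEAD4 KD as filled circles and control as open squares, 1 array each, joined by a line. EPHA2 has the longest line, with 10.87 in TEAD4 KD and 8.77 in control, while the paired probes of EFNA1 and of EFNA4 differ between themselves; from the EPHA10 line down, the genes are outside the 10.

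EPHA2 is an epithelial receptor for A-type ephrins, EFNA1 above all, and is abundant in many carcinomas. Its 1 probe, ILMN_1699354, had a deposited signal of 1786 in TEAD4 KD and 436.0 in control. After normalization the log2 signals were 10.87 in TEAD4 KD and 8.77 in control, a log2 difference of 2.10, or 4.29-fold higher in TEAD4 KD. In the authors' deposited normalized values it was 3.95-fold higher, at 2242 in TEAD4 KD and 567 in control. The knockdown array is thus the high one on each scale, and the deposited signals before any scaling already stood at a ratio of 4.10.

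The size of the EPHA2 difference can be set against the other genes. It ranked in place 6 from the top among 10717 genes detected on both arrays, and 0.20% of all detected genes were at least as far from 0 in either direction. Its mean signal fell in the third of 4 equal groups of genes ordered from dim to bright. In that group of 2930 genes, 37 (1.26%) were at least 2-fold higher in TEAD4 KD. Among 2497 genes with a pair of detected probes, the log2 differences given by the pair scattered with an SD of 0.31 per probe. It was 0.27 for the brighter genes and 0.34 for the dimmer ones. The EPHA2 difference was 6.83 times the first of these SDs. That spread comes from probes sharing the same RNA and hybridization, so it leaves out any difference between cultures, and EPHA2 has no second probe to set beside the first. The genes were chosen with these differences known, so the place and the multiple describe EPHA2 and test nothing.

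**Figure D2:**
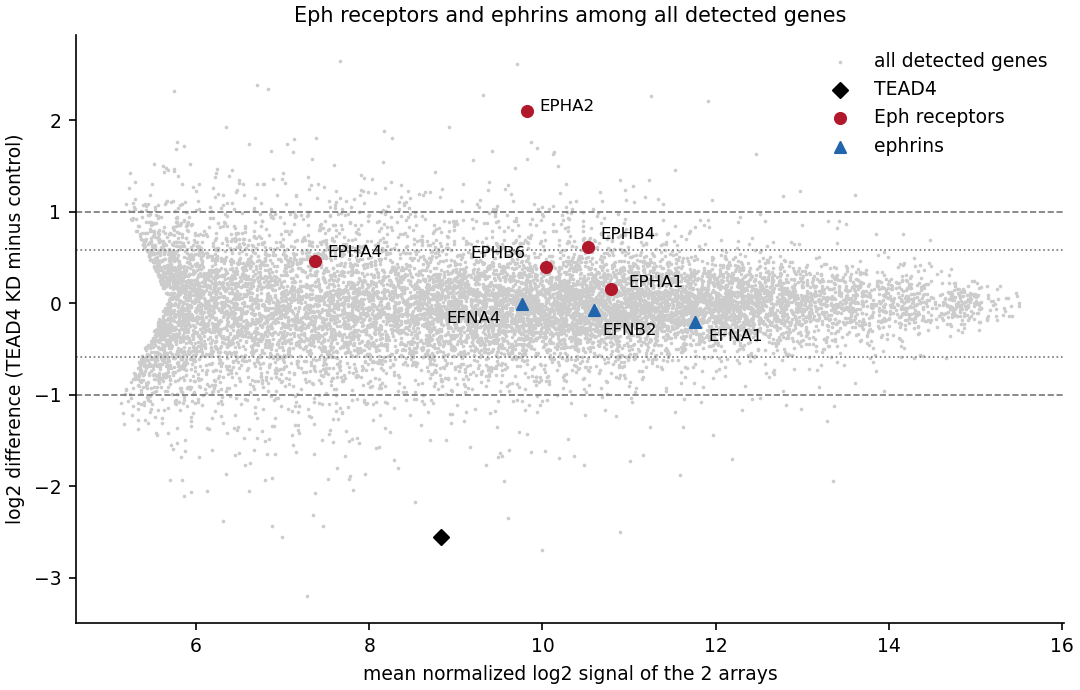
Log2 difference, TEAD4 KD minus control (vertical axis), against the mean normalized log2 signal of the arrays (horizontal axis) for each of the 11720 detected genes, by its brightest probe. Red circles are the 5 detected Eph receptors, blue triangles the 3 ephrins and the black diamond TEAD4; dashed lines mark 2-fold and dotted lines 1.5-fold. EPHA2, at 2.10, lies above the upper dashed line, and the other receptors marked in red lie between 0.16 and 0.61.

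EPHA1, the founding member of the family and like EPHA2 a receptor for A-type ephrins, was near equal on the arrays. Its deposited signal was 1793 in TEAD4 KD and 1724 in control, with normalized log2 signals of 10.87 in TEAD4 KD and 10.72 in control. The log2 difference of 0.16 is under the SD between probes of one gene, and 65.9% of all detected genes were at least as far from 0. EPHA4 binds ephrins of both types and is best known for axon guidance. Its signal was 174 in TEAD4 KD and 129 in control, the lowest deposited signals of the 5 detected receptors among the 10 genes. The EPHA4 log2 difference was 0.46, 1.38-fold higher in the knockdown. It was 1.5 times the SD between probes over all pairs, an SD that was larger for dimmer genes. In the deposited normalized values it was 1.24-fold higher, so its size depends on the normalization. Of all detected genes, 24.8% were at least as far from 0 as EPHA4.

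EPHB4 is the receptor of EFNB2, and this pair is known for separating veins from arteries. EPHB4 had a deposited signal of 1739 in TEAD4 KD and 1222 in control, and normalized log2 signals of 10.83 in TEAD4 KD and 10.22 in control. It was 1.53-fold higher in the knockdown, just inside the 1.5-fold size, whereas EPHA4 at 1.38-fold and EPHB6 at 1.32-fold were the nearest outside it. The EPHB4 log2 difference of 0.61 was 1.99 times the SD between probes, and 15.2% of all detected genes were at least as far from 0. Before scaling, its deposited signals stood at a ratio of 1.42. EPHB6 has a kinase domain that lacks catalytic activity, and it is known to act together with other Eph receptors. Its deposited signal was 1141 in TEAD4 KD and 934 in control, a log2 difference of 0.40 after normalization. Both detected EPHB probes were thus brighter on the knockdown array, EPHB6 by less than 1.5-fold.

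EFNA1, a lipid-anchored ligand of EPHA2 and EPHA1, had its brighter probe, ILMN_2371055, at a deposited signal of 3100 in TEAD4 KD and 3889 in control. The log2 difference of that probe was -0.21, 1.15-fold lower in the knockdown. The dimmer EFNA1 probe, ILMN_2371053, had 509 in TEAD4 KD and 488 in control and a log2 difference of 0.17. The paired EFNA1 probes thus went opposite ways by less than the SD between probes, and their mean difference was -0.02, while the receptor EPHA2 was 4.29-fold higher in the same cells.

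EFNA4, another lipid-anchored ephrin, showed a larger gap between its probes. The brighter one, ILMN_1755710, is annotated to the transcript NM_182689 and had a deposited signal of 819 in TEAD4 KD and 888 in control, a log2 difference of -0.01. The dimmer one, ILMN_1665696, is annotated to NM_005227 and had 214 in TEAD4 KD and 115 in control. Its log2 difference was 0.87, 1.83-fold higher in the knockdown and 1.53-fold higher in the deposited normalized values. By the mean of both probes EFNA4 had a log2 difference of 0.43, so the sign of the gene's value rests on the probe chosen. The annotated transcripts differ, and whether the probes measure different transcripts was not tested.

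EFNB2 is a transmembrane ephrin and the partner of EPHB4. Its probe had a deposited signal of 1442 in TEAD4 KD and 1634 in control, with normalized log2 signals of 10.56 in TEAD4 KD and 10.64 in control. The log2 difference of -0.08 is under the SD between probes, and 82.0% of all detected genes were at least as far from 0. For this receptor and ligand, the log2 differences stood at 0.61 for EPHB4 and -0.08 for EFNB2.

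**Figure D3:**
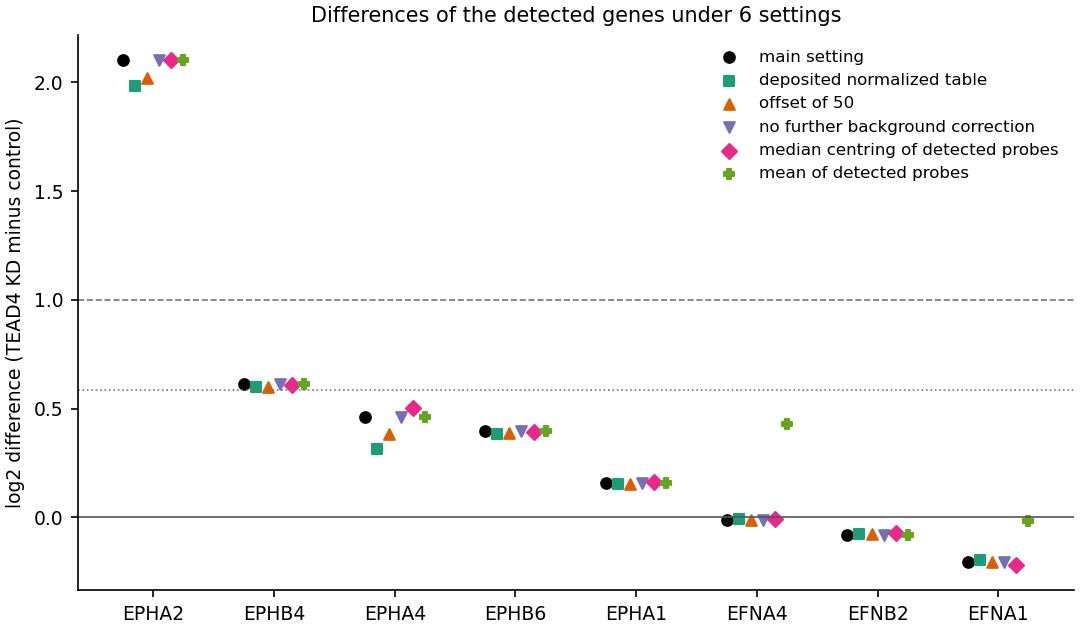
Log2 difference, TEAD4 KD minus control (vertical axis), of the 8 detected genes under the processing used here and 5 others, marked by colour and shape. The others include the mean of the detected probes in place of the brightest probe. The dashed line is 2-fold and the dotted line 1.5-fold. EPHA2 stays between 1.98 and 2.10 and EPHB4 between 0.60 and 0.61, while EFNA4 spans -0.01 to 0.43 because its probes disagree.

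The remaining 12 genes of both families were mostly not detected. By the brightest probe, 4 of the 12 were detected on at least 1 array, 3 of them on both. EPHA8, a receptor studied mainly in the nervous system, had 58.3 in TEAD4 KD and 121 in control by the probe that was detected, 1.79-fold lower in the knockdown, or 1.40-fold lower in the deposited normalized values. Its second probe was detected on neither array. EFNB1, a transmembrane ephrin, had 69.4 in TEAD4 KD and 45.7 in control. That was 1.43-fold higher in the knockdown, or 1.19-fold higher in the deposited normalized values. EPHA10, a receptor without an active kinase, had 1 probe at a log2 difference of 0.31 and another at -0.24, with its other 2 probes detected on neither array. Of the 6 probes of EPHA6, 1 was detected, in TEAD4 KD alone, where it was at least 1.05-fold higher. All 4 genes fall in the dimmest of the 4 groups of genes, in which 12.56% were higher in TEAD4 KD by at least 1.5-fold and 16.86% were lower by that much. EPHA3, EPHA5, EPHA7, EPHB1, EFNA2, EFNA3, EFNA5 and EFNB3 were detected on neither array, although EFNA3 came close in TEAD4 KD with a detection p-value of 0.011.

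Of 47 listed adaptors, exchange factors, GTPases, kinases, phosphatases, proteases and PDZ proteins, 41 had a probe and 33 were detected, all on both arrays. By the brightest probe, 0 were higher by 1.5-fold and 3 (9.09%) were lower by that much, beside 7.24% and 9.2% of all detected genes. By their next brightest probe, however, SDCBP (1.23), GRB2 (1.01), ROCK2 (0.75) and RAC1 (0.63) had log2 differences past 1.5-fold higher. By theirs, ABL1 (-0.96), ITSN1 (-0.94) and NCK1 (-0.62) were past 1.5-fold lower. The median log2 difference of the 33 was -0.03, against -0.04 for all detected genes. CBLB, a ubiquitin ligase that marks activated receptors for degradation, had 762 in TEAD4 KD and 1488 in control, 1.80-fold lower. FYN, a Src-family kinase used in both directions of ephrin signalling, had 538 in TEAD4 KD and 977 in control, 1.66-fold lower, but its other probes detected on both arrays differed by -0.38 and 0.10 on the log2 scale. NGEF, the exchange factor ephexin that couples EPHA4 to RHOA, had 69.7 in TEAD4 KD and 117 in control, 1.51-fold lower by its 1 probe and 0.34 lower on the log2 scale in the deposited normalized values.

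Other partners sat close to equality. Nearest to 0 were the GTPase RAC1 at a log2 difference of -0.003 and the adaptors NCK2 at 0.02 and NCK1 at -0.03, which link Eph receptors to the actin cytoskeleton. A second RAC1 probe differed by 0.63 and a second NCK1 probe by -0.62, so these genes are near equal by 1 probe only. Of 15 detected partners with another probe detected on both arrays, the next brightest probe had the other sign in 4, and in 3 of those it was at least 1.5-fold from 0. The 10 detected adaptors had a median of -0.005, the 6 kinases -0.15 and the 5 GTPases and their effectors -0.003. With 3 detected genes each, the exchange factors had a median of -0.24, the phosphatases 0.17, the proteases and ubiquitin ligases -0.17 and the PDZ and reverse signalling genes 0.12.

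**Figure D4:**
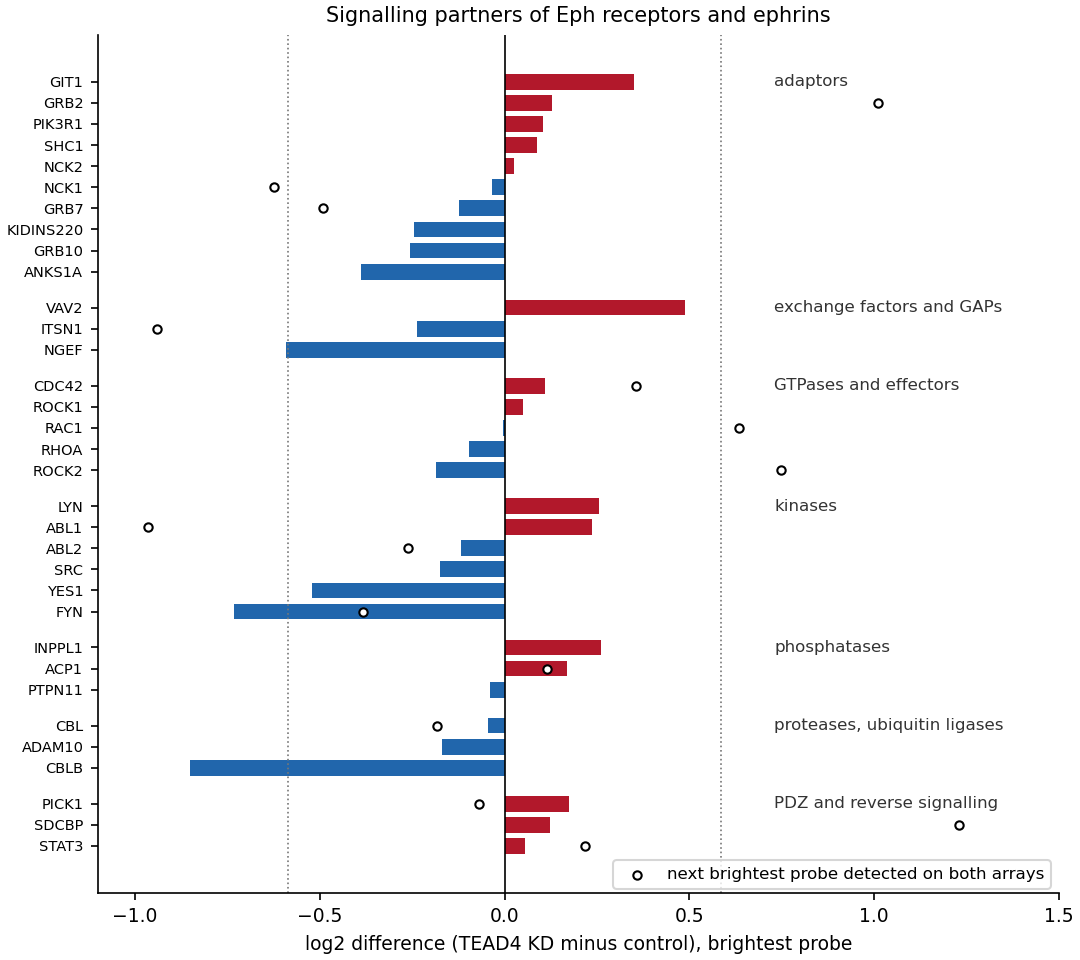
Log2 difference, TEAD4 KD minus control (horizontal axis), of the 33 detected signalling partners by their brightest probe (bars, red above 0 and blue below), grouped by role; open circles are the next brightest probe where 1 was detected on both arrays, and dotted lines mark 1.5-fold. CBLB, FYN and NGEF pass the lower line, no bar passes the upper one, and several open circles lie far from their bar.

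Position on the chromosome was read from the order of genes in RefSeq. ARHGEF19, the detected gene next to EPHA2, had a log2 difference of -0.04, and FAM131C on the other side was detected on neither array. EFNA4, EFNA3 and EFNA1 lie in a row on chromosome 1 between ADAM15, at 0.09, and SLC50A1, at 0.24. Next to EPHB4, SLC12A9 differed by 0.31, and next to EFNB2, ARGLU1 differed by -0.005. ZYX, next to EPHA1, differed by -0.33 and SLC4A3, next to EPHA4, by -0.01. MAGEF1, next to the undetected EPHB3, differed by 0.69. The large difference of EPHA2 was not shared by the 1 neighbour that could be measured. Whether position has a part in any of these differences was not tested. These neighbours were looked up after the values of the family had been seen.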

How the data were processed

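The deposited table of non-normalized probe intensity values holds 1 array each of TEAD4 KD and control cells on a linear scale, and, per the file headers, a p-value of detection for every signal. A background had already been subtracted, since 12895 probes in TEAD4 KD and 12861 in control are below 0. A further deposited intensity table is normalized to a common distribution, and the software is not given in the sources used here.

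Signals were normalized with neqc of limma 3.58.1 in R 4.3.3 (background from the detection p-values, offset 16, quantile normalization, log2). The normalization script was checked on simulated signals with known folds. The offset pulls the folds of dim probes towards 1. Symbols came from the platform annotation: 30113 probes have 1 symbol, 8 have several and 17202 are not listed, and 30074 matched RefSeq by Entrez identifier. No genome build is given for the probes. Each gene was read by its brightest probe. A gene counted as past 1.5-fold or 2-fold when it was also detected (p under 0.01) on the brighter array. A gene detected on 1 array has a bound, against the higher of the dim probe and the lowest detected signal of that array.

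The members and lists were chosen with earlier results of these data known. The text names TEAD4, every member, the other family genes that were detected, and the partners past 1.5-fold with the 3 detected ones nearest to 0. No test between the groups was run, since 1 array a group leaves no spread. A planned comparison of the proteins was not made.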

Additional observations from a re-analysis of the deposited data

How the results depend on the processing

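No paired analysis was possible because TEAD4 KD and control have 1 array each, and for the same reason no replicate could be left out. The counts of the 10 genes past 1.5-fold (2 higher, 0 lower) and past 2-fold (1 higher, 0 lower) were equal under all 7 alternatives. The log2 difference of EPHA2 ranged from 1.98 to 2.10, of EPHB4 from 0.60 to 0.61, of EPHA4 from 0.31 to 0.50, of EPHB6 from 0.38 to 0.40 and of EPHA1 from 0.15 to 0.16. That of EFNB2 ranged from -0.08 to -0.07, and that of EFNA1 from -0.22 to -0.02. Averaging the detected probes moved EFNA4 to 0.43, because its second probe enters. The numbers of all detected genes depended more on the setting. With the deposited normalized values, 448 genes were at least 1.5-fold higher and 530 lower, with 77 and 105 past 2-fold. With an offset of 50 these were 550 and 710, with 105 and 147 past 2-fold. Only the offset differed from the main setting there. Why the deposited normalized values gave fewer genes was not tested. The median of the other Eph and ephrin genes was 0.41 over the 4 detected in the main setting. It was 0.20 in the deposited normalized values, 0.27 with an offset of 50 and 0.28 by the mean of detected probes. With median centring it was 0.48, and without a detection filter, where genes at background enter, 0.033. The partner median stayed between -0.04 and 0.02. A difference counted as moved when it shifted by the SD between probes (0.31), a tolerance chosen after the data were seen. An added offset shrinks the differences of dim probes, as for EPHA4, at 0.38 with an offset of 50.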
